A study of Mus musculus with 8 samples.

Results

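Ribosome biogenesis and RNA polymerase I (Pol I) genes were followed in newly made RNA of mouse embryonic stem cells after induced loss of Ythdc1, the nuclear reader of N6-methyladenosine. The set holds 50 named genes, matched by symbol to the deposited table, and all 50 were found among its 37795 genes. They were chosen by known role, though with earlier results of these data known. All 50 passed the filter on low values, a deposited signal of at least 10 in at least 2 of 8 libraries, as did 20658 genes in all. By role they comprised 9 genes of the Pol I machinery, 8 of the small nucleolar ribonucleoproteins (snoRNPs), 5 of other nucleolar proteins, 16 of small-subunit processing and 12 of large-subunit assembly.

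The assay was 4sUDRB-seq. DRB, an inhibitor of the kinase that lets RNA polymerase II (Pol II) leave the promoter region, was given at 100 µM for 3 h and washed out, and new RNA was labelled with 1 mM 4-thiouridine (4sU), purified and sequenced. There were 4 groups of 2 libraries: 4OHT with 8 min of label, DMSO with 8 min, 4OHT with 0 min and DMSO with 0 min. With 0 min of label, the signal of the latter groups cannot be read as newly labelled RNA. A comparison of 8 with 0 min thus differs in label as well as in release. All came from male Ythdc1 conditional-knockout embryonic stem cells of 129 mice, grown without feeders in serum and LIF, so the DMSO cells carry the conditional allele too. 4OHT (4-hydroxytamoxifen, 1 µg/ml) or its solvent DMSO was given for 4 days. The enzyme that 4OHT activates, and whether a line is 1 clone, are not given in the sources used here. Titles of the samples give a cell line number that changes with label time, so line and label time cannot be told apart from them, but in the table each time has a column of number 1 and of number 2. These numbers serve below to name libraries. They also match a 4OHT with a DMSO library in some descriptions and form a block in an alternative fit, but not in the main fits. Nothing states that the 2 libraries of a group came from separate cultures, so p-values measure the spread between these libraries, which may be technical.

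Ribosome production begins in the nucleolus, where Pol I copies the ribosomal RNA (rRNA) genes into one long precursor. Box C/D and box H/ACA snoRNPs, guided by small nucleolar RNAs, methylate and pseudouridylate this precursor, and the small-subunit processome and the pre-60S assembly factors cut, fold and package it. The proteins for all of these steps are made from genes that Pol II transcribes, so it is those Pol II genes, and not the rRNA, that the 50 members report on. In stem cells these genes are among the well-transcribed genes of the growth programme, and many are known targets of Myc proteins, which bind E-box letters.

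The upstream sequence of several members is shown first because the set shares letters there that the choice of members did not use. RefSeq promoters (GRCm38.p6, 250 bases before to 50 after the start) were matched by symbol for 45 of the 50 members. CCGGAAG, the core letters bound by ETS-family and GABP factors, stood on either strand in 21 of 45 members (46.7%), against 18.2% of tested protein-coding genes and 12.9% of all protein-coding genes with a window. The E-box CACGTG stood in 10 of 45 (22.2%), against 11.2% of tested protein-coding genes. The other ribosome biogenesis genes listed below had similar shares, 42.9% for CCGGAAG and 19.4% for CACGTG among 98 genes. Of 27 CCGGAAG matches in the members, 21 began between 60 bases before and 30 after the start. The CCAAT box stood in 14 of 45 members (31.1%), against 43.2% of tested protein-coding genes, and the NRF1 motif in 1 of 45. The 80 bases before the start of 8 members follow, 5′ to 3′ on the gene's strand, with CACGTG and CCGGAAG or its reverse complement in capitals where the match lies wholly inside. The first 4 precede genes with a lower signal in 4OHT cells, and the last 4 precede genes that were not called.
Polr1c (chr17:46248046-46248125, minus strand): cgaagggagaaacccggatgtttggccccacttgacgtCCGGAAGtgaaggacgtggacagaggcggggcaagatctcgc
Nop2 (chr6:125131803-125131882, plus strand): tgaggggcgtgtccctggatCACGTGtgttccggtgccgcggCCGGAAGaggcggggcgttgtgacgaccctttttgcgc
Nhp2 (chr11:51619693-51619772, plus strand): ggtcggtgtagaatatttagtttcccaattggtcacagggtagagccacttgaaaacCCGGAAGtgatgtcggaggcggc
Nolc1 (chr19:46075767-46075846, plus strand): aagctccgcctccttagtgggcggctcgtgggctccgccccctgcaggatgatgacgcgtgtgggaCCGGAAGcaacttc
Rrn3 (chr16:13780619-13780698, plus strand): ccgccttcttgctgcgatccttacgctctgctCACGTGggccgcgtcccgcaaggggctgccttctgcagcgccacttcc
Utp4 (chr8:106893560-106893639, plus strand): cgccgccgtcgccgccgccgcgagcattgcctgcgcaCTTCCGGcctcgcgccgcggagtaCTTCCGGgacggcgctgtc
Heatr1 (chr13:12395295-12395374, plus strand): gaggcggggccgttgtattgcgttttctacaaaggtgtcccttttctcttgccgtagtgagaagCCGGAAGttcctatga
Dhx37 (chr5:125434049-125434128, minus strand): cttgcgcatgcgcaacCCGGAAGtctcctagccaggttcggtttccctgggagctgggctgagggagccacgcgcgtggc
Each of these 8 windows holds CACGTG or CCGGAAG, and none precedes a gene called higher in the comparison below, so they do not represent the 45 members. CCGGAAG stood in 6 of 9 members with a lower signal in 4OHT, in 2 of 4 with a higher signal and in 13 of 32 that were not called. The median log2 fold change was -0.0046 in the 21 members with CCGGAAG and -0.0095 in the 24 without it. These are counts of letters, not of bound sites.

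The scale of the deposited values bears on every comparison between libraries. The values were whole reads divided by one number per library, and one entry, LSU-rRNA_Hsa, a large-subunit rRNA of the repeat annotation, stood at exactly 1000 in all 8 libraries. The deposited signal is therefore reads per 1000 reads assigned to that rRNA entry, a Pol I product. Its share of reads was 0.00954% and 0.00604% in the 4OHT libraries of 8 min, against 0.0264% and 0.0161% in the DMSO libraries of 8 min. At 0 min it was 0.0402% and 0.0215% with 4OHT and 0.0389% and 0.0318% with DMSO. Changes are therefore given mainly relative to other genes, after median-ratio scaling of the 4 libraries of 8 min, and a scaled signal is the deposited value after that step. The libraries held 46.3 to 134 M recovered reads (M, mega). As the check of the targeted gene, Ythdc1 had a scaled signal of 2036 and 2460 in 4OHT libraries, against 2933 and 3584 in DMSO libraries of 8 min (log2 fold change -0.53 ± 0.13, SE, adjusted p = 0.00257). The deleted part of the gene is not given in the sources used here, and reads outside it do not check the deletion. Of 10 embryonic stem cell markers, 1 was higher and 3 were lower in 4OHT cells, and their summed scaled signal was 6240 and 6331 in 4OHT libraries, against 7044 and 6642 in DMSO libraries. All 8 tested of 14 markers of 2-cell-like cells were higher in 4OHT, with summed scaled signals of 385 and 359, against 31.9 and 40.0 in DMSO. The summed scaled signals of the fibroblast, primitive endoderm and trophoblast lists lay between 12.7 and 90.4 in every library. The part of these lists in the values below was not tested. Fewer cells of a type and less RNA per cell cannot be told apart in these bulk samples.

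Relative to other genes, the set as a whole stood almost where the median gene stood. At 8 min its median log2 fold change, 4OHT over DMSO, was -0.03, with limits of -0.53 (Dkc1) and 0.54 (Wdr12). The values of the members were also close together: 48 of 50 (96%) lay within 0.5 of zero, against 67.0% of all tested genes, and their standard deviation was 0.26, against 0.62 over all tested genes. In the fit across all genes (limma, two-sided, Benjamini-Hochberg adjusted p under 0.05), 4 members were higher and 9 were lower in 4OHT cells, which is 8% and 18% of the set. The background was 18.6% of all tested genes higher and 16.7% lower. The share of members lower in 4OHT was thus near the background, and the share higher was less than it, with no test of that difference. Both 4OHT libraries lay above both DMSO libraries for 15 members, where 33.6% of all tested genes did so, and below them for 18 members, where 33.7% did so. The log2 fold changes of the number 1 pair of libraries and the number 2 pair correlated over the 50 members (Pearson correlation 0.77, Spearman correlation 0.76), as a description of genes that share these 4 libraries. Over 13951 protein-coding genes the values were similar, at 0.78 and 0.75. With all 8 libraries in one fit, or with scaling by the spike-in sums, no member was called in either direction. Of all 20658 tested genes, 2 were higher and 28 lower in the first of these fits, and 6 and 4 in the second.

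**Figure D1:**
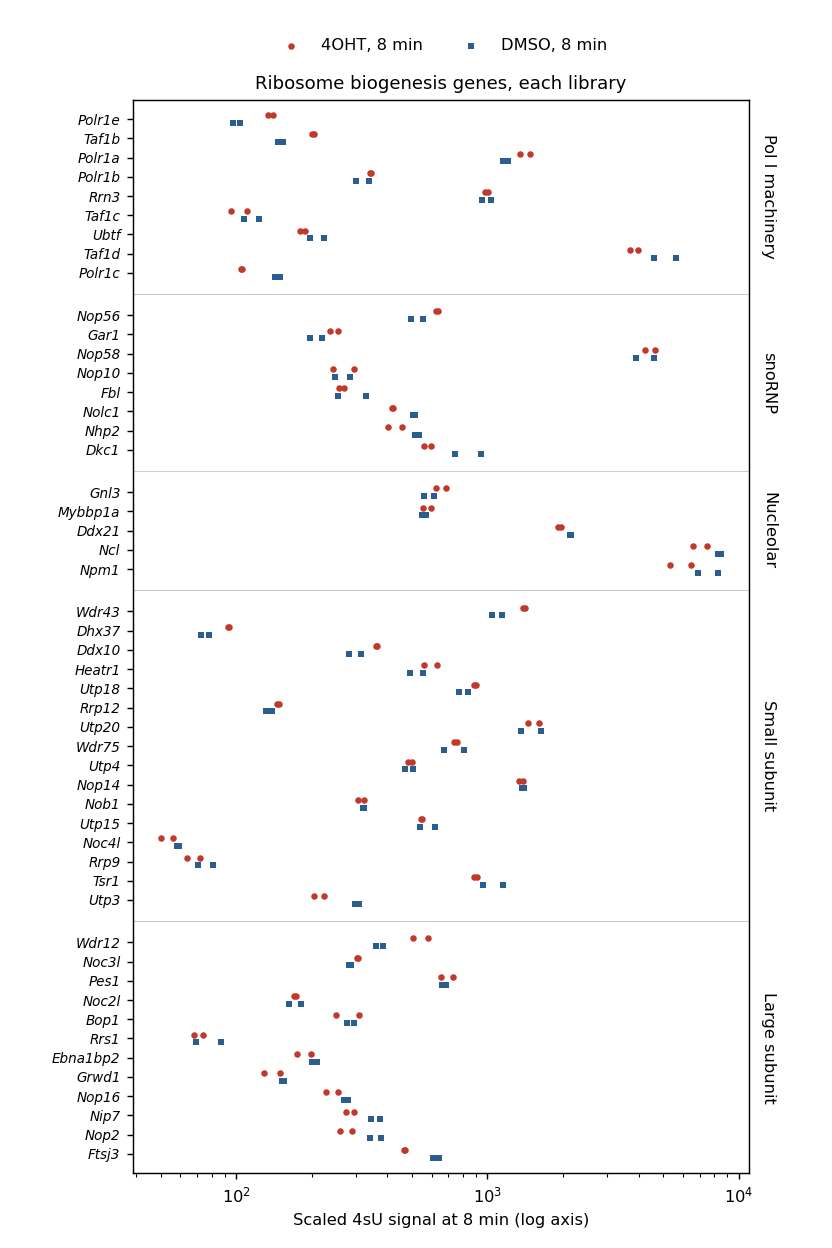
Scaled 4sU signal of each of the 50 genes in the 4 libraries of 8 min, on a log axis, in rows by role; red circles are the 2 4OHT libraries and blue squares the 2 DMSO libraries. Dkc1 and Wdr12 show the 2 colours apart in opposite directions, whereas Nop58, Utp20 and Rrn3 overlap.

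Among the genes of the Pol I machinery, 2 of 9 were higher and 2 of 9 lower in 4OHT, with a median log2 fold change of -0.00. Polr1a, the largest catalytic subunit of Pol I, had a scaled signal of 1483 and 1348 in 4OHT libraries, against 1212 and 1153 in DMSO libraries. Polr1b, the second-largest subunit, had 345 and 340 in 4OHT, against 300 and 338 in DMSO. Both genes lay without overlap above DMSO but did not pass the test (log2 fold changes 0.26 ± 0.11 and 0.11 ± 0.12, SE; adjusted p = 0.0713 and 0.511). Polr1e, a Pol I-specific subunit, had 140 and 134 in 4OHT, against 96.9 and 104 in DMSO, a rise of 0.45 ± 0.14 on the log2 scale (adjusted p = 0.0169). Polr1c, a subunit that Pol I shares with Pol III, had 105 and 105 in 4OHT, against 143 and 150 in DMSO, and fell by 0.48 ± 0.14 (adjusted p = 0.00977). Genes for subunits of one enzyme thus lay on both sides of zero.

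The genes for the promoter factors of Pol I were split in the same way. Rrn3, which joins Pol I to the promoter-bound factors, had a scaled signal of 977 and 1003 in 4OHT, against 949 and 1036 in DMSO, so the groups overlapped. Ubtf, the HMG-box factor that covers active rRNA genes, had 179 and 187 in 4OHT, against 223 and 197 in DMSO (log2 fold change -0.19 ± 0.13, adjusted p = 0.244). The 3 TAF1 genes encode TBP-associated factors of the selectivity complex at the rRNA promoter. Taf1b had 205 and 201 in 4OHT, against 147 and 153 in DMSO, and rose by 0.44 ± 0.13 (adjusted p = 0.0098). Taf1d had 3691 and 3980 in 4OHT, against 4594 and 5612 in DMSO, and fell by 0.41 ± 0.13 (adjusted p = 0.0214). Taf1c overlapped between the groups (log2 fold change -0.16 ± 0.15). The span of Taf1d holds several annotated small nucleolar RNA genes, and reads from them cannot be told apart from its introns here.

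Among the snoRNP genes, 3 of 8 were lower and 0 of 8 higher, with a median of -0.07. At an unadjusted p under 0.05, 1 of 8 was higher, against 4773 of all 20658 tested genes. Dkc1, the pseudouridine synthase of box H/ACA particles, had a scaled signal of 561 and 595 in 4OHT libraries, against 743 and 941 in DMSO libraries. It fell by 0.53 ± 0.12 (adjusted p = 0.00115), the lowest value in the set. Nhp2, another H/ACA core protein, had 457 and 402 in 4OHT, against 536 and 514 in DMSO, and fell by 0.29 ± 0.11 (adjusted p = 0.0445). The 2 remaining H/ACA core genes did not pass the test, Nop10 at 0.01 ± 0.13 and Gar1 at 0.24 ± 0.12. Nolc1, a nucleolar chaperone of snoRNPs, had 423 and 419 in 4OHT, against 517 and 506 in DMSO, and fell by 0.28 ± 0.11 (adjusted p = 0.048).

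The core genes of box C/D particles were not called. Fbl, the rRNA 2′-O-methyltransferase, had a scaled signal of 257 and 268 in 4OHT, against 255 and 330 in DMSO. Nop56 had 634 and 626 in 4OHT, against 555 and 497 in DMSO (0.26 ± 0.11, adjusted p = 0.065), and Nop58 had 4261 and 4635, against 3890 and 4624. Of these, the groups of Nop56 alone did not overlap. Inside 8 members, among them Nop56, Nop58, Dkc1, Taf1d and Ncl, lie 25 annotated small nucleolar RNA genes, of which 9 were tested in the table. None of the 9 was called (background 18.6% higher and 16.7% lower). Their deposited signals at 8 min were low, from 7.09 (Snord91a, DMSO) to 209 (Snord69, 4OHT). Of microRNA genes inside members, Gm25500 in Taf1d was lower in the limma fit (-0.39, adjusted p = 0.0123). Gm24148 in Ncl was not called (-0.29, adjusted p = 0.167). The strand counted and the handling of nested genes are not given in the sources used here.

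None of the 5 other nucleolar genes was called. At an unadjusted p under 0.05, 0 were higher and 1 lower, against 4773 and 4421 of all 20658 tested genes. Npm1, the nucleolar histone and pre-60S chaperone, had a scaled signal of 5323 and 6461 in 4OHT, against 6907 and 8292 in DMSO (log2 fold change -0.37 ± 0.15, adjusted p = 0.0577). Ncl, nucleolin, an RNA-binding protein of the dense fibrillar component, had 6611 and 7490 in 4OHT, against 8274 and 8501 in DMSO (-0.25 ± 0.15, adjusted p = 0.185). Both lay below DMSO without overlap while missing the threshold. Ddx21, a nucleolar RNA helicase, had 1972 and 1913, against 2152 and 2125 (-0.14 ± 0.11). Gnl3, nucleostemin, a GTPase of proliferating stem cells, had 625 and 683 in 4OHT, against 561 and 612 in DMSO (0.16 ± 0.11). Mybbp1a overlapped between the groups (0.05 ± 0.11). Per kilobase of gene, Npm1 and Ncl had the highest deposited signal of the 50 members at 8 min, with means of 885 and 831 in 4OHT and of 411 and 353 in DMSO.

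Among 16 small-subunit genes, 1 was higher and 1 lower, and the median was 0.02. Utp3, a processome component encoded by a short gene of 1.63 kb, had a scaled signal of 205 and 223 in 4OHT, against 308 and 297 in DMSO, and fell by 0.50 ± 0.12 (adjusted p = 0.00214). Wdr43, a processome subunit that binds early precursor RNA, had 1411 and 1382 in 4OHT, against 1044 and 1141 in DMSO, and rose by 0.36 ± 0.11 (adjusted p = 0.0138). Heatr1, the mammalian Utp10, had 558 and 633 in 4OHT, against 494 and 554 in DMSO (0.18 ± 0.11, adjusted p = 0.215). Utp20, a large scaffold of the processome, had 1454 and 1604, against 1357 and 1630, and overlapped. Dhx37, the helicase that acts on the U3 small nucleolar RNA in the processome, had 92.9 and 93.6 in 4OHT, against 77.8 and 72.6 in DMSO (0.31 ± 0.16, adjusted p = 0.131). Ddx10, the longest member at 150 kb, stood just outside the threshold at 0.29 ± 0.11 (adjusted p = 0.0534). The other 10 small-subunit genes ranged from -0.23 (Tsr1) to 0.16 (Utp18) and were not called.

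Among 12 large-subunit genes, 1 was higher and 3 were lower, with a median of -0.13. Wdr12 had a scaled signal of 506 and 582 in 4OHT libraries, against 385 and 361 in DMSO libraries, and rose by 0.54 ± 0.11 (adjusted p = 0.000698), the highest value in the set. Its 2 partners in the PeBoW complex, which acts in maturation of the large-subunit rRNA, lay near zero. Pes1 had 732 and 655 in 4OHT, against 662 and 684 in DMSO (0.04 ± 0.11), and Bop1 had 307 and 250, against 296 and 277 (-0.04 ± 0.12). Ftsj3, an rRNA 2′-O-methyltransferase, had 465 and 471 in 4OHT, against 609 and 644 in DMSO, and fell by 0.42 ± 0.11 (adjusted p = 0.00411). Nop2, an rRNA cytosine methyltransferase, had 288 and 260 in 4OHT, against 340 and 376 in DMSO, and fell by 0.38 ± 0.12 (adjusted p = 0.0133). Nip7, a pre-60S factor, had 275 and 295, against 346 and 372, and fell by 0.33 ± 0.12 (adjusted p = 0.0277). The other 6 large-subunit genes ranged from -0.18 (Nop16) to 0.10 (Noc3l) and were not called.

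**Figure D2:**
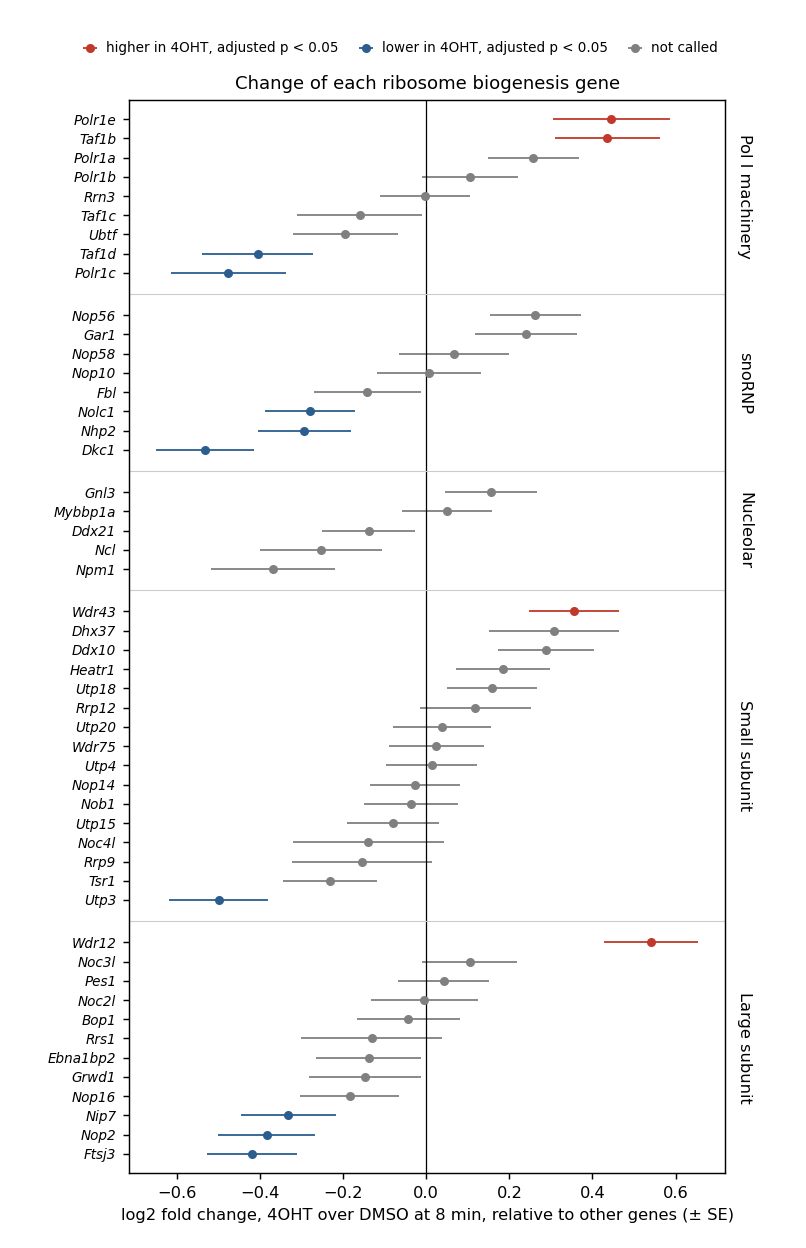
Log2 fold change of each of the 50 genes, 4OHT over DMSO at 8 min relative to other genes, with its standard error (limma, 2 libraries a group), in rows by role; red is higher, blue lower and grey not called at an adjusted p under 0.05. Called genes of both directions stand in the Pol I, small-subunit and large-subunit rows, and the snoRNP row has 3 lower genes.

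The 13 calls differed in how far they rested on single libraries. In the 13 called members the 2 groups did not overlap, and fold changes (4OHT over DMSO) ran between 0.692 and 0.824 for those lower and between 1.28 and 1.46 for those higher. Dkc1, Utp3, Ftsj3 and Wdr12 passed the test with each of the 4 libraries left out in turn, Polr1c and Taf1b with 3 of the 4 left out, and Nop2 with 2. Polr1e, Taf1d, Wdr43 and Nip7 passed in 1 of these 4 fits, and Nhp2 and Nolc1 in none. Each of these 4 fits leaves 1 library in a group. In each, fewer of all tested genes were called in either direction than in the main fit. The loss of calls was thus not particular to the members. Of the 13, 6 share their end with another listed protein-coding gene, over 3 to 496 bases and at most 4.49% of the member's length. Dkc1 shares 44 bases with Mpp1, which had a log2 fold change of -1.07, and Polr1e shares 32 bases with Fbxo10, which had -0.66.

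A wider list of ribosome biogenesis genes gave a similar picture. Of 117 further genes of the pathway found in the table and tested, 10 (8.55%) were higher and 13 (11.1%) lower, with a median of -0.07 and a range of -0.70 to 0.92. The lowest were Wdr46, a small-subunit factor, at -0.70, Utp11 at -0.65 and Cebpz, a large-subunit factor related to yeast Noc1, at -0.64. The highest were Rcl1 at 0.92, Diexf (Utp25) at 0.87 and the RNA exosome subunit Exosc7 at 0.72. Cebpz had a scaled signal of 373 and 401 in 4OHT, against 603 and 604 in DMSO, and Rcl1 had 340 and 289, against 177 and 153.

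The change of the members also varied with gene length, a relation picked for description after the values were seen. The 9 members lower in 4OHT were 1.63 to 13.9 kb long and the 4 that were higher were 15.7 to 59.99 kb long, so the 2 sets of lengths do not overlap. Members under 10 kb had a median log2 fold change of -0.15 (17 genes), those of 10 to 30 kb -0.03 (24 genes) and those of 30 to 100 kb 0.15 (8 genes). Protein-coding genes of the same classes had medians of -0.10, 0.02 and 0.13. Over the 50 members, length and log2 fold change had a Spearman correlation of 0.57 (Pearson r of log10 length 0.52), against 0.31 over 116 further biogenesis genes and 0.14 over 13951 protein-coding genes. The genes share the same 4 libraries, and with number 1 alone the Spearman correlation was 0.62 and with number 2 alone 0.38. After DRB release Pol II enters a gene from its start, so the part of a gene that carries label after 8 min depends on its length; the region of each gene that the authors counted is not given in the sources used here, and its part in this relation was not tested.

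**Figure D3:**
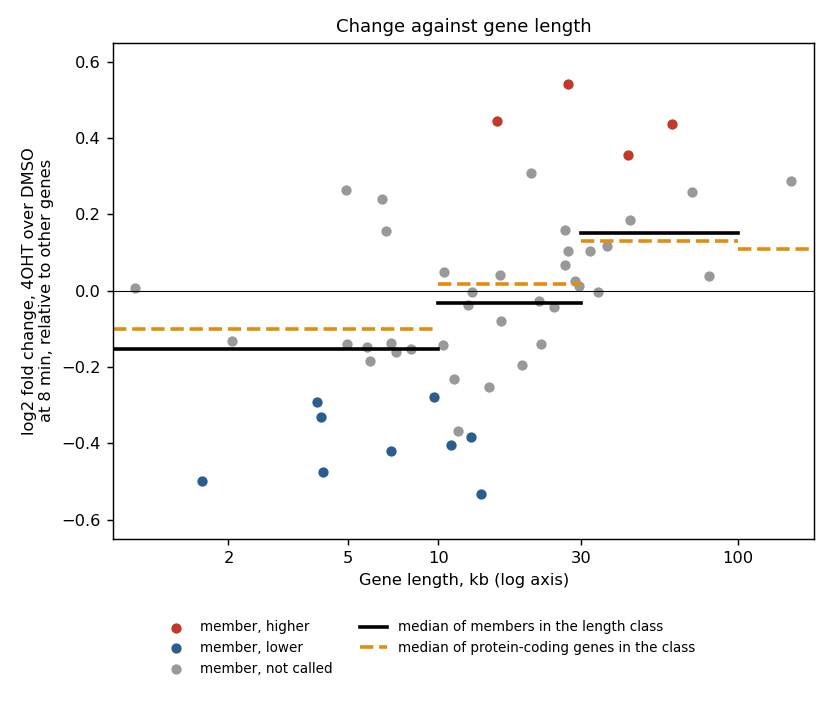
Log2 fold change of the 50 genes, 4OHT over DMSO at 8 min relative to other genes, against gene length in kb on a log axis; black lines are medians of members and orange dashed lines medians of all tested protein-coding genes in classes divided at 10, 30 and 100 kb. The 9 lower genes lie left of 15 kb and the 4 higher genes right of it.

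On the deposited scale, that is per rRNA read, all 50 members lay higher in both 4OHT libraries of 8 min than in both DMSO libraries, as did 90.3% of all tested genes. The median log2 fold change of the members was 1.43 and that of all tested genes 1.43. In this fit 34 members were higher (background 58.7%) and 0 lower (background 0.131%). At an unadjusted p under 0.05, 0 members were lower, against 36 of all 20658 tested genes. Dkc1 had a deposited signal of 743 and 1250 in 4OHT, against 357 and 711 in DMSO (log2 fold change 0.93 ± 0.59, adjusted p = 0.139). Wdr12 had 670 and 1224 in 4OHT, against 185 and 273 in DMSO (2.01 ± 0.59, adjusted p = 0.00607). The count of 34 changed when single libraries were left out: it was 0 without number 2 of the 4OHT libraries or without number 1 of the DMSO libraries of 8 min, 25 without number 2 of those DMSO libraries, and 15 without either DMSO library of 0 min. The count over all tested genes fell in each of these fits too. The rRNA entry's share of reads, given above, moved with this comparison, and its part in the result was not tested.

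Another rRNA entry and 2 small nucleolar RNA entries of the table are given here as values at 8 min, with no test. The entry SSU-rRNA_Hsa had a scaled signal of 1633 and 1344 in 4OHT libraries, against 2051 and 1927 in DMSO libraries. U3, the small nucleolar RNA of the small-subunit processome, had 333 and 369 in 4OHT, against 977 and 945 in DMSO. U8, a small nucleolar RNA needed for large-subunit rRNA processing, had 41.9 and 50.2, against 162 and 201. In each of the 3 entries both 4OHT libraries lay below both DMSO libraries on this scale. On the deposited scale the direction turned for SSU-rRNA_Hsa, with 2161 and 2823 in 4OHT, against 985 and 1456 in DMSO. U3 then overlapped between the treatments, with 441 and 775 in 4OHT, against 469 and 714 in DMSO, and so did U8, with 55.4 and 105 in 4OHT, against 77.7 and 152 in DMSO. With 0 min of label the deposited signal of all 3 entries was higher than at 8 min in both treatments. U3 had 819 and 857 with 4OHT and 934 and 798 with DMSO, and U8 202 and 193, and 222 and 216. SSU-rRNA_Hsa had 3398 and 6686, and 3418 and 4421. The values at 8 min can therefore not be read as newly made RNA. On the scale relative to other genes, Fbl, Nop56 and Nop58, whose proteins bind box C/D RNAs such as U3 and U8, lay at -0.14, 0.26 and 0.07.

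Before release, at 0 min, no member was called between treatments (0 higher and 0 lower with limma, background 0% in both directions). At an unadjusted p under 0.05 the members' counts were also 0, against 495 higher and 55 lower of all 20658 tested genes. The median on the deposited scale was 0.29 for the members and 0.28 for all tested genes, and both 4OHT libraries lay above both DMSO libraries for 8 members, where 15.4% of all tested genes did so, and below them for 0, where 3.54% did so. The difference between the 8 and 0 min effects was positive for all 50 members, with a median of 1.14, against 1.15 for all tested genes. None was called (background 0.392% higher). At an unadjusted p under 0.05, 2 members were higher, against 3609 of all 20658 tested genes.

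After release from DRB these genes held a larger share of the signal in both treatments. The 50 members together made up 0.784% and 0.837% of all gene signal in 4OHT libraries of 8 min, and 0.384% and 0.396% in 4OHT libraries of 0 min. With DMSO they made up 0.853% and 0.899% at 8 min, and 0.382% and 0.362% at 0 min. At 8 min both 4OHT libraries lay below both DMSO libraries, but this rested on Ncl and Npm1. On the deposited scale the members' sums at 8 min were 56487 and 95610 with 4OHT and 22088 and 38229 with DMSO. Without Ncl and Npm1 they were 40690 and 66302 with 4OHT and 14798 and 25541 with DMSO. As shares of all gene signal, the latter sums overlapped between the treatments. One entry, Gm26917, picked out after its values were seen, took up between 2.67% and 3.92% of each library of 8 min, and between 23.2% and 27.7% of each library of 0 min. Without it the members' shares were 0.823% and 0.870% at 8 min and 0.581% and 0.577% at 0 min with 4OHT. With DMSO they were then 0.905% and 0.950% at 8 min and 0.586% and 0.550% at 0 min. The share was thus still larger after release without that entry, by a smaller margin. On the deposited scale 49 members were higher at 8 than at 0 min with 4OHT (background 74%) and 32 with DMSO (background 47%; 18 members without number 2 of the DMSO libraries of 8 min), and 0 were lower with either, also at an unadjusted p under 0.05 (background 0.823% and 1.96%). Both libraries of 8 min lay above both of 0 min for all 50 members with 4OHT (background 83.4%) and for 48 with DMSO (background 64.5%). Relative to other genes, after median-ratio scaling of all 8 libraries, 22 were higher and 6 lower with 4OHT (background 30.3% and 27.3%), and 23 were higher and 4 lower with DMSO (background 31.1% and 26.1%). The lead over other genes depended on the filter. On the deposited scale the members' median rise lay above the all-gene median by 0.49 with 4OHT and 0.55 with DMSO. At a minimum of 100 this lead was 0.12 and 0.14 (47 members), and without a filter 1.63 and 1.35.

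The order of the members after release was nearly the same in both treatments. Release values of the 50 members, 8 over 0 min, had a Pearson r of 0.96 between 4OHT and DMSO on the deposited scale, and 0.90 over 13951 protein-coding genes, as a description. Taf1b led the set, with a deposited signal of 272 and 423 at 8 min and 5.54 and 9.67 at 0 min with 4OHT. With DMSO it had 70.5 and 116 at 8 min and 4.85 and 5.08 at 0 min. Its relative log2 rise was 2.94 ± 0.27 with 4OHT and 2.83 ± 0.27 with DMSO. Wdr75, a processome subunit, followed at 2.73 ± 0.24 with 4OHT and 2.74 ± 0.24 with DMSO, and Nop14, a small-subunit factor, at 2.58 ± 0.20 and 2.59 ± 0.20. In these 3 genes the signal at 0 min was small, at 2.19% to 6.87% of that at 8 min.

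Other members had much signal at 0 min, which with 0 min of label is not a measure of transcription before release. Mybbp1a, a nucleolar repressor of Pol I transcription, had a deposited signal of 737 and 1258 at 8 min and 340 and 482 at 0 min with 4OHT, and 263 and 430 at 8 min and 331 and 353 at 0 min with DMSO. Its signal at 0 min was thus 41.2% of that at 8 min with 4OHT and 98.8% with DMSO, and relative to other genes it fell by 1.24 ± 0.21 with 4OHT and by 1.27 ± 0.21 with DMSO. Ubtf fell by 0.87 ± 0.21 and by 0.90 ± 0.21, and Ddx21 by 0.98 ± 0.21 and by 0.78 ± 0.21. Taf1c, at -0.98 ± 0.46 and -0.83 ± 0.46, was not called. Over the 50 members the signal at 0 min was a median of 13.2% of that at 8 min with 4OHT and 27.6% with DMSO, on the deposited scale, against 17.5% and 39.5% over all tested genes. By role, the relative median rise with 4OHT and with DMSO was 1.04 and 1.23 for small-subunit genes, 0.80 and 0.79 for snoRNP genes, 0.63 and 0.59 for Pol I genes, 0.33 and 0.32 for large-subunit genes and -0.46 and -0.13 for the other nucleolar genes. These are levels of change within a group of genes, and no difference between roles was tested.

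**Figure D4:**
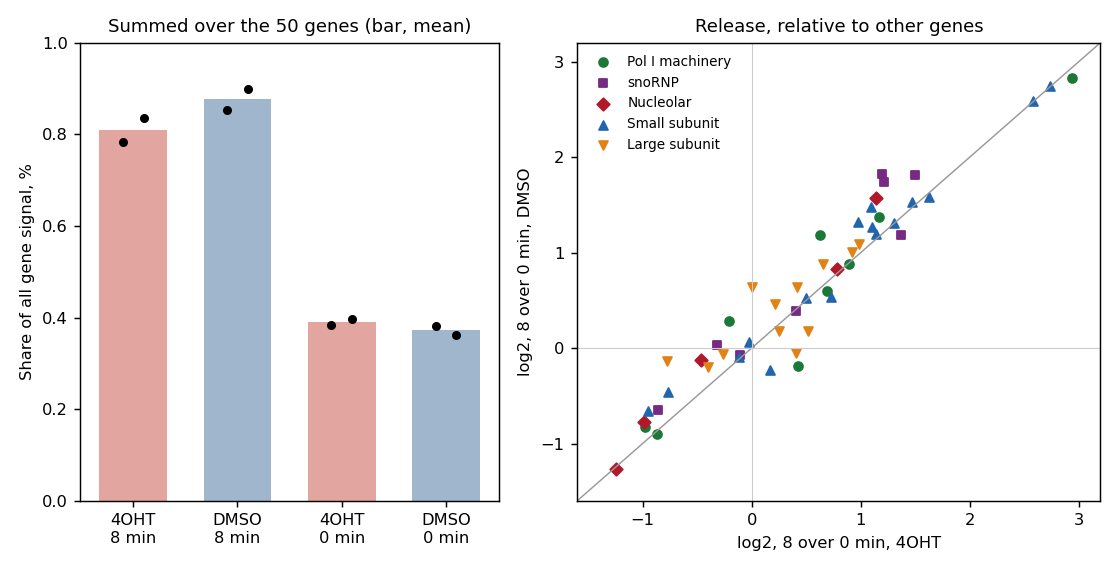
Left, share of all gene signal held by the 50 genes in each library (points) and the mean of each group (bars). Right, log2 change of each gene, 8 over 0 min, with 4OHT and with DMSO after median-ratio scaling of all 8 libraries, by role; the line marks equal values, and Taf1b, Wdr75 and Nop14 stand at the upper right and Mybbp1a at the lower left.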

How the data were processed

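The authors deposited one table of signal values, 38971 entries by 8 libraries, with no per-sample file. Bowtie2, STAR 2.7, bcl2fastq and the mm10 build are named per the submitters' processing notes; the role of each, the strand and multi-mapping rules are not given in the sources used here. The deposited signal multiplied by one number per library gave whole reads within 0.01 for 99.99% to 100% of entries, and that number was the reads of LSU-rRNA_Hsa per 1000. Columns were assigned to groups by name, and a column without 4OHT was taken as DMSO.

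From these values, log2(signal + 1) of 20658 genes with at least 10 in at least 2 libraries was fitted with limma 3.58.1 (R 4.3.3, eBayes with a trend, two-sided), with Benjamini-Hochberg adjustment over those genes; fold changes understate low genes. Deposited-scale contrasts used all 8 libraries, and the relative comparison the 4 of 8 min after median-ratio scaling. Errors of fold changes are standard errors from n = 2 libraries a group. Alternatives included other pseudocounts, filters and scalings, the number as a block, edgeR 4.0.16, which called 3712 genes higher and 3381 lower, and DESeq2 1.42.0 on recovered reads; the fit was tested on simulated data.

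Members and lists were chosen with earlier results of these data known. Named genes are a set of 18 members by role, the 5 highest and 5 lowest members in the relative comparison, the 3 highest and 3 lowest of the wider list and Ythdc1; other members named by value, such as the remaining called ones and the extremes of release, were chosen after their values were seen. Sequences, coordinates and lengths are RefSeq's (GRCm38.p6).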

Additional observations from a re-analysis of the deposited data

How the results depend on the processing

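In the comparison at 8 min relative to other genes, the counts of members (4 higher, 9 lower) were 1 to 5 higher and 4 to 9 lower with any one of the 4 libraries left out. Those fits called fewer of all tested genes too. Under scaling by spike-in sums the members' counts were 0 and 0, where 6 of all tested genes were higher and 4 lower. The members' counts were also 0 and 0 with all 8 libraries scaled and fitted together, where the 0 min libraries enter the spread. Of all tested genes, 2 were then higher and 28 lower, and the cause was not tested. Without a filter 4 members were lower, against 2524 of all genes in that fit. Quantile normalization gave 5 and 9, edgeR 4 and 10, and DESeq2 6 and 11. Over all tested genes, in the same order, these gave 3668 and 3525, 3712 and 3381, and 3718 and 3413. On the deposited scale, 34 members were higher at 8 min, against 10 without a filter, 0 under either scaling and 0 to 41 with one library left out. Over all genes in each fit, 6540 were higher without a filter, 2 after median-ratio scaling of all 8 libraries and 29 under spike-in scaling. Release with 4OHT gave 22 members higher and 6 lower after median-ratio scaling of all 8 libraries and 32 higher under spike-in scaling. Over all tested genes these counts were 6268, 5639 and 10437. With DMSO, 4 were lower after median-ratio scaling, and 18 to 34 were higher with one library left out. The spike-in sums themselves varied from 1028 to 31054 between libraries.

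Each library's number as a replicate block gave 7 higher and 10 lower members in the relative comparison, and 4306 and 3955 of all 20658 tested genes. On the deposited scale at 8 min, 50 members and 17087 of all tested genes were higher. For the difference of the 8 and 0 min effects, 16 members and 6206 of all tested genes were higher. The fit without the block gave 0 members and 81 genes for that difference. Same-numbered libraries had correlations of deviations of 0.02 to 0.46, not all over 0.1. The main fits did not take the numbers as pairs. A correlation leaves out any shift common to all genes, so these values cannot decide whether same-numbered libraries are paired. The median deviation had the same sign for same-numbered libraries in every group. At 8 min its size was 0.33 with 4OHT and 0.32 with DMSO, and at 0 min 0.39 and 0.079. Without the block, 34 members were higher on the deposited scale at 8 min, so that count depends on this choice.

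For 36 named genes in the relative comparison, 405 of 504 values under the alternatives kept direction and side of the threshold, 71 lost a call, 11 gained one and 17 changed sign, all of the last in genes that were not called. Rrn3 was 0.026 without a filter and 0.13 under spike-in scaling, Bop1 0.085 under spike-in scaling, Utp20 -0.0062 and Pes1 -0.0025 at a minimum of 100, and Nop58 -0.013, Utp20 -0.042 and Pes1 -0.038 with all 8 libraries scaled. With one library left out, Rrn3 ran between -0.0685 and 0.061, Fbl between -0.33 and 0.046, Nop58 between -0.059 and 0.19, Utp20 between -0.096 and 0.17, Bop1 between -0.19 and 0.10, and Pes1 between -0.038 and 0.12. Deposited-scale values turned negative under median-ratio scaling of all 8 libraries for Dkc1 (-0.61) and Ythdc1 (-0.61), and under spike-in scaling (-0.40 and -0.41). Release values turned with median-ratio scaling to -1.24 for Mybbp1a, -0.87 for Ubtf and -0.98 for Taf1c with 4OHT, and to -0.90 for Ubtf and -0.83 for Taf1c with DMSO. With DMSO, Mybbp1a was 1.86 under spike-in scaling and between -0.38 and 0.33 with one library left out, and Taf1c between -0.10 and 0.90.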
